A study of Homo sapiens with 9 samples.

Results

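Growth factor ligands of the EGF family (HBEGF, AREG, EREG and NRG1), their receptor EGFR and the PDGF ligands PDGFA, PDGFC and PDGFD were followed in BJ cells, human skin fibroblasts immortalised with telomerase. These 8 genes are those of 9 names fixed by symbol that the deposited table of 13745 genes carries, and TGFA was not analysed here. The table gives 1 normalised read count per gene for each of 9 polyA RNA-seq libraries. Oncogenic RAS (RASG12V) was activated in 8 of them, together with knockdown of the long non-coding RNA lncRNA-OIS1 (4 libraries, replicates 1 to 4 with hairpins 32-2, 32-3, 32-8 and 32-9), p53 (1 library) or BRD7 (1 library), or with a non-targeting hairpin, 500 or 507, which gives the senescent group (2 libraries). The ninth library, the control, carried non-targeting hairpin 500 without RAS activation. All 9 libraries carry the same label of 14 days of 4-OHT, the drug that switches on inducible proteins of this kind, whereas the design text calls the control untreated. Neither the RAS gene nor the vector is named in the labels, and the knockdowns in the p53 and BRD7 groups are known from 1 library each. Each library of the lncRNA-OIS1 and senescent groups carries its own hairpin, so no hairpin is repeated within a group. The p-values therefore measure the spread between libraries of different hairpins, which may in part be technical. The spread between repeats of 1 hairpin is unknown.

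EGF-family ligands are made as membrane-anchored precursors, cut loose by metalloproteases of the ADAM family, and bind receptors of the ERBB family. HBEGF, AREG and EREG bind EGFR, and NRG1 binds ERBB3 and ERBB4 with ERBB2 as a partner. Their receptors signal through RAS, and RAS-MAPK activity is known to induce several of the ligands, so that the pathway can feed itself. PDGF ligands are mitogens of mesenchymal cells, with PDGFA and PDGFC acting mainly on PDGFRA and PDGFD on PDGFRB. In senescent fibroblasts, secreted growth factors of both families belong to the secretory phenotype.

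The values were quantile-normalised, so the libraries share 1 distribution (sum 14916466.5, median 340.1), and 1375 genes of each library sit at its lowest value, a floor of 20. A value therefore reflects the rank of a gene within its library, sequencing depth is unknown, and a value of 20 means at or below the floor. BRD7 stood at 94.6 in its knockdown library, against 628.7 and 536.6 in the senescent libraries. LncRNA-OIS1 itself was not analysed here. Of 10 fibroblast markers all were in the table and 0 were at the floor in any library, while 3 of 7 epithelial, 3 of 7 leukocyte and 1 of 5 endothelial markers were in it. Libraries lncRNA-OIS1 replicate 4 and the control stood apart: 300 and 490 genes were over 2-fold above all other libraries there, and 224 and 315 over 2-fold below, against at most 27 in any other library. Calls that change without replicate 4 are given beside the results, and since the control is 1 library, no contrast with it has a replicate check of that side.

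EREG and AREG are neighbours on chromosome 4, with 0 listed genes between them in the RefSeq gene table. EREG ranged from 1089.8 to 19965.9, whereas AREG ranged from the floor of 20 to 93.6. AREG was too low for its pattern to be compared with that of EREG. HBEGF on chromosome 5 had a larger positive change than EREG in senescent against control, though not in lncRNA-OIS1 knockdown against control. Neither HBEGF nor EREG passed the test over all libraries. The 250 bases before the start site of these 3 ligand genes are shown, from RefSeq on build GRCh38.p14, at chr4:74364895-74365144 (plus strand) for EREG, chr4:74444886-74445135 (plus strand) for AREG and chr5:140346604-140346853 (minus strand) for HBEGF. Capitals mark matches, on either strand, to the AP-1 letters TGANTCA, the CRE letters TGACGTCA or the SP1 letters GGGCGG, and overlapping matches are merged.
EREG: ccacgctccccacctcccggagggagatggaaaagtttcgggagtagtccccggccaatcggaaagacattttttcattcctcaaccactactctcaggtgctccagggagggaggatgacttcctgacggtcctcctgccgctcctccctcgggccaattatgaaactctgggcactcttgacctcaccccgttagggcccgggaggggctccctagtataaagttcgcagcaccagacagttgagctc
AREG: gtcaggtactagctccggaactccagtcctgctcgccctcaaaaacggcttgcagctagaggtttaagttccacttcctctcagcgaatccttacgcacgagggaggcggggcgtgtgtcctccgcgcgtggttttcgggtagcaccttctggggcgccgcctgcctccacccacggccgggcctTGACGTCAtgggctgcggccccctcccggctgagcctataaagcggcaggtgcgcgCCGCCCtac
HBEGF: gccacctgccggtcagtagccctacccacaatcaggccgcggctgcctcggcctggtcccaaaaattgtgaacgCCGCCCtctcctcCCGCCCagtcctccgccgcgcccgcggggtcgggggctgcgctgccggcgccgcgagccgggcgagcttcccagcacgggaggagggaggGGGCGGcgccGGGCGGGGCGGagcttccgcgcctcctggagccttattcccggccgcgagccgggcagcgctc
The EREG window held 0 matches to the 3 motifs. The AREG window held 1 CRE and 1 SP1 match, and the HBEGF window 5 SP1 matches, 2 of which share a base. Among 35116 RefSeq windows of the same length, 6.57% held the AP-1 letters, 1.65% the CRE letters and 42.6% the SP1 letters. Promoter windows of 6 of the 8 genes were used. The EGFR windows held 2 SP1 matches at 1 of 2 start sites and 2 AP-1 matches at the other, the 4 PDGFA windows 1 to 5 SP1 matches each, and the PDGFD window 1. These matches are letters in a window and no measure of binding.

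Among the EGFR ligands, EREG (ENSG00000124882), or epiregulin, spanned the widest range of values, from 1089.8 to 19965.9. It had 19965.9, 10922.3, 14174.3 and 1089.8 in lncRNA-OIS1 replicates 1 to 4, 5100.2 with p53 knockdown, 9784.6 with BRD7 knockdown, 4733.9 and 5820.2 in the senescent libraries and 1376.1 in the control. Replicates 1 to 3 were above every library of the other groups, whereas replicate 4 was below all of them, the control included. By group mean the order was lncRNA-OIS1 knockdown at 11538 ± 7906 (SD, n = 4), BRD7 knockdown, senescent at 5277 ± 768 (n = 2), p53 knockdown and control. The p53 knockdown value lay between the senescent libraries, and the BRD7 value within the range of the lncRNA-OIS1 group. EREG was 3.81-fold higher in the senescent libraries than in the control, but the difference did not pass the test in the fit to all libraries (log2 1.93, SE 1.71, limma adjusted p = 0.479). In the fit without lncRNA-OIS1 replicate 4, which keeps the 3 libraries compared and alters the estimate of the spread, the same change had adjusted p = 0.0307. Between lncRNA-OIS1 knockdown and control EREG had log2 2.47 (SE 1.56, adjusted p = 0.353), and log2 3.4 without replicate 4 (adjusted p = 0.00994).

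HBEGF (ENSG00000113070), a heparin-binding ligand, had 380.3, 318.3, 180.0 and 139.9 in lncRNA-OIS1 replicates 1 to 4, 374.8 with p53 knockdown, 225.7 with BRD7 knockdown, 235.4 and 254.2 in the senescent libraries and 54.7 in the control. The control was the lowest of the 9, and the lncRNA-OIS1 libraries lay on both sides of the senescent pair. HBEGF was 4.47-fold higher in the senescent libraries than in the control (log2 2.16, SE 0.62, 95% interval 0.61 to 3.71), with limma adjusted p = 0.0712, and adjusted p = 0.0384 without lncRNA-OIS1 replicate 4. The lncRNA-OIS1 libraries were 4.3-fold above the control (log2 2.10, SE 0.57, adjusted p = 0.0726, and log2 2.35 with adjusted p = 0.0337 without replicate 4). HBEGF thus stayed outside the threshold over all 9 libraries in both contrasts, and passed it in both when replicate 4 was left out.

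AREG (ENSG00000109321), or amphiregulin, was close to the floor throughout. It had 93.6, 35.1, 23.3 and 23.9 in lncRNA-OIS1 replicates 1 to 4 and 28.1 with p53 knockdown, and was at the floor with BRD7 knockdown, in both senescent libraries and in the control. All 4 lncRNA-OIS1 libraries were above the senescent ones, but replicate 1 was the only library over 40, the value that a gene had to reach in some library to be tested. Against a group at the floor the fold of 1.84 is a lower bound, and the change did not pass (log2 0.88, SE 0.60, limma adjusted p = 0.443). The gene table lists AREGB as another name of AREG, and older genome builds annotate it as a near-identical second copy, so reads shared by the copies make the AREG level uncertain.

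NRG1 (ENSG00000157168), or neuregulin, which acts on ERBB3 and ERBB4, had 824.7, 670.9, 787.9 and 632.7 in lncRNA-OIS1 replicates 1 to 4, 302.6 with p53 knockdown, 444.2 with BRD7 knockdown, 383.7 and 530.9 in the senescent libraries and 356.6 in the control. The 4 lncRNA-OIS1 libraries were the highest of the 9, at 729 ± 91.8 (SD, n = 4) against 457 ± 104 (n = 2) in the senescent libraries. Its change against the senescent libraries was log2 0.68 (SE 0.18, 95% interval 0.23 to 1.14, limma adjusted p = 0.116) and against the control log2 1.02 (SE 0.24, adjusted p = 0.0504). The second contrast sat at the threshold: without replicate 4 it was log2 1.09 with adjusted p = 0.0417, and with only genes of mean at least 80 in the fit adjusted p = 0.0416. The p53 knockdown library was the lowest for NRG1, 0.67-fold the senescent level (log2 −0.58, SE 0.26, adjusted p = 0.228).

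EGFR (ENSG00000146648), the receptor of the first 3 ligands, varied little. It had 5140.2, 3220.0, 3534.9 and 4056.6 in lncRNA-OIS1 replicates 1 to 4, 3298.1 with p53 knockdown, 4074.8 with BRD7 knockdown, 3300.6 and 3277.1 in the senescent libraries and 3182.6 in the control. The senescent libraries differed from the control by log2 0.05, with a 95% interval of −0.64 to 0.73 (limma adjusted p = 0.939). Of the lncRNA-OIS1 libraries 3 were above both senescent ones and replicate 2 was below both, and the group's change was log2 0.26 (95% interval −0.23 to 0.74, adjusted p = 0.493). These intervals still hold changes of up to log2 0.73 and 0.74.

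Of the PDGF ligands, PDGFA and PDGFD were highest in the control, and PDGFC varied little. PDGFA (ENSG00000197461), whose dimer acts on PDGFRA, was at the floor in all 8 libraries with RAS activation and at 122.2 in the control, so it was at least 6.11-fold lower in the senescent libraries and in the lncRNA-OIS1 libraries. PDGFD (ENSG00000170962), a ligand of PDGFRB, had 20, 29.2, 31.4 and 20 in lncRNA-OIS1 replicates 1 to 4, 20 with p53 knockdown, 25.1 with BRD7 knockdown, 20 in both senescent libraries and 65.0 in the control. The control thus lay above all other libraries for both genes. PDGFA fell in the senescent libraries (log2 −2.61, SE 0.16, limma adjusted p = 0.0016) and in the lncRNA-OIS1 libraries (log2 −2.61, SE 0.14, adjusted p = 0.000794), each against the control. It had no spread in the replicated groups, so each p-value comes from a variance borrowed from other genes and from 1 control library. PDGFD fell by 1.70 on the log2 scale in the senescent libraries (SE 0.35, adjusted p = 0.0328) and by 1.40 in the lncRNA-OIS1 libraries (SE 0.32, adjusted p = 0.0481). In the senescent libraries its fold of 3.25 is a lower bound, and in the lncRNA-OIS1 libraries it was 2.64-fold lower.

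The PDGFA calls held without any one of the 6 replicated libraries, but all of these are at the floor, so leaving 1 out could not alter its fold. The PDGFD call in senescent libraries was lost without senescent replicate 1 (adjusted p = 0.139) or 2 (0.156) and without lncRNA-OIS1 replicate 2 (0.0557). That in lncRNA-OIS1 libraries was lost without either senescent replicate (0.117 and 0.118) and without lncRNA-OIS1 replicate 1 (0.0753), 2 (0.0761) or 3 (0.051). Both genes entered the fit only through the control, the 1 library in which they reached 40, so that they had to differ from it, and their calls count for no more than these values.

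PDGFC (ENSG00000145431), another ligand of PDGFRA, had 904.0, 1020.2, 1056.0 and 1236.0 in lncRNA-OIS1 replicates 1 to 4, 920.1 with p53 knockdown, 1342.0 with BRD7 knockdown, 1300.4 and 1148.9 in the senescent libraries and 1139.4 in the control. The lncRNA-OIS1 libraries overlapped the senescent ones and lay on both sides of the control. The senescent change was log2 0.10 (95% interval −0.39 to 0.60, limma adjusted p = 0.77), and the largest of the other changes was that of p53 knockdown against senescent, log2 −0.41 (95% interval −0.90 to 0.09, adjusted p = 0.26).

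Read across the comparisons, senescent against control asks what RAS activation did to these genes. All 8 passed the filter, and limma called 2 of 8 members, both lower (PDGFA and PDGFD), where 15% of 12481 genes were called in either direction, 7.95% as higher and 7.1% as lower. Since both were tested only because of their control value, nothing is read from this count. Both senescent libraries were above the control for 5 members (HBEGF, EREG, NRG1, EGFR and PDGFC), and over all genes 48.1% were, and both were below it for PDGFA and PDGFD, as for 42.8% of all genes. In lncRNA-OIS1 knockdown against control, 2 of 8 were called, again PDGFA and PDGFD, with 11.2% of all genes called, 5.38% as higher and 5.83% as lower, and the same limit holds. All 4 lncRNA-OIS1 libraries were above the control for 4 members (32.1% of all genes) and below it for 2 (28.7%). The 4 include AREG, which passed the filter only through lncRNA-OIS1 replicate 1, and the 2 are PDGFA and PDGFD, so nothing is read from these counts. Without lncRNA-OIS1 replicate 4, HBEGF and EREG rose in both contrasts and NRG1 in the second, so that 4 and 5 of 8 were called, at 2015 and 1448 genes called higher and 1689 and 1374 lower of 12481. The 2 contrasts share the control library and are not independent of each other.

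Against the senescent libraries, each knockdown asks which levels of RAS-activated cells it altered, and the 3 contrasts share the same 2 senescent libraries. With lncRNA-OIS1 knockdown limma called 0 of 8 members, as it called 0% of all genes, and 1 member (NRG1) and 2805 genes had an unadjusted p under 0.05. Without replicate 4, 0 members were called, with 80 genes called higher and 84 lower. All 4 lncRNA-OIS1 libraries were above both senescent ones for 2 members, AREG and NRG1, beside 17.1% of all genes, and below both for 0 members, beside 21.5%. AREG passed the filter only through lncRNA-OIS1 replicate 1, so nothing is read from the count of 2. EREG changed by log2 0.54 (SE 1.21, adjusted p = 0.825), and by log2 1.47 without replicate 4, at 15021 ± 4581 (n = 3), with adjusted p = 0.0691. HBEGF had log2 −0.06 over all libraries (adjusted p = 0.955) and 0.19 without replicate 4 (adjusted p = 0.766).

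With p53 knockdown 0 of 8 were called, while 3.84% of all genes were (2.27% as higher and 1.57% as lower), and 0 members had an unadjusted p under 0.05. Without lncRNA-OIS1 replicate 4, 1045 genes were called higher and 1101 lower in this contrast, and still 0 members. Its library was above both senescent ones for 2 members (43.4% of all genes) and below both for 2 (45%). Its largest changes among the members were HBEGF, log2 0.62 (SE 0.62, adjusted p = 0.593), and NRG1. EREG stood at 0.972-fold the senescent level there (log2 −0.04, 95% interval −4.28 to 4.20). With BRD7 knockdown 0 of 8 were called, with 0.00801% of all genes and again 0 members at an unadjusted p under 0.05. Without lncRNA-OIS1 replicate 4, 3 genes were called higher and 5 lower, and 0 members. Its library was above both senescent ones for 4 members (40.1% of all genes) and below both for 1 (45.4%). EREG was 1.86-fold the senescent level (log2 0.90, SE 1.71, adjusted p = 0.901), above both senescent libraries. Against the control, which these single libraries were not tested against, HBEGF was 6.85-fold higher with p53 knockdown and 4.13-fold higher with BRD7 knockdown, and EREG 3.71-fold and 7.11-fold.

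**Figure D1:**
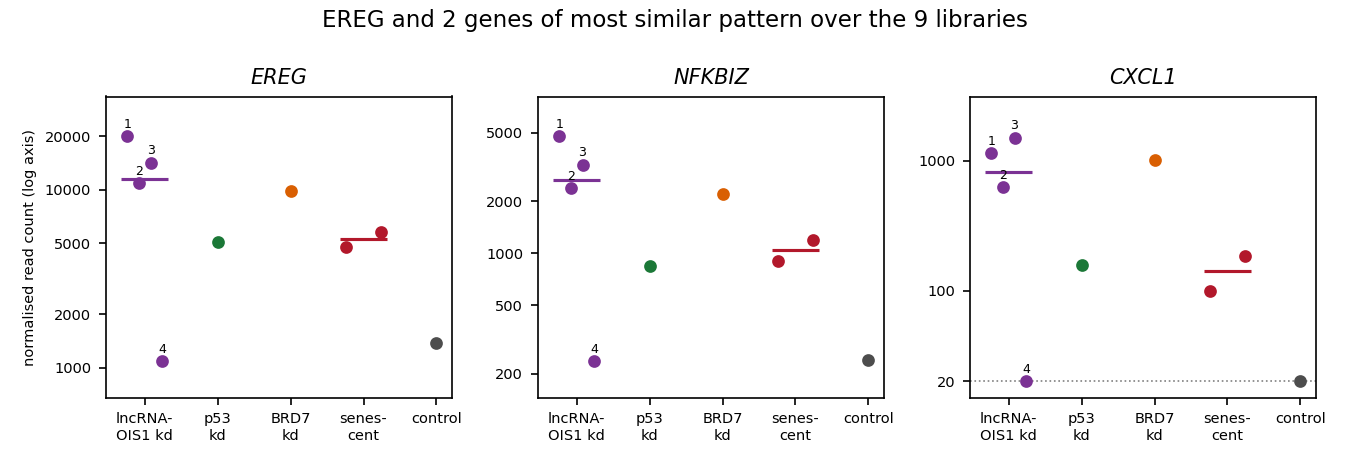
Normalised read count (log axis) of EREG and the 2 named genes with the most similar pattern, 1 point per library, groups as in the plot of the 8 genes, with bars at group means and a dotted line at the floor. In all 3 panels lncRNA-OIS1 replicate 4 lies at or below the control (236.8 against 239.6 for NFKBIZ), and replicates 1 to 3 above the senescent libraries.

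Genes whose log2 values followed each member most closely over the 9 libraries were picked by Pearson's r, as a description over libraries that share a table and a normalisation. For EREG they were NFKBIZ, an NF-kB cofactor of inflammatory genes (r = 0.995), the chemokine gene CXCL1 (r = 0.973) and PPP4R1L (r = 0.972). NFKBIZ had 4769.7, 2381.7, 3258.9 and 236.8 in lncRNA-OIS1 replicates 1 to 4, 839.0 with p53 knockdown, 2207.0 with BRD7 knockdown, 899.0 and 1197.4 in the senescent libraries and 239.6 in the control. CXCL1 was at the floor in lncRNA-OIS1 replicate 4 and in the control, and at 99.9 to 1513.4 in the other 7 libraries. For HBEGF the closest were EPN2 (r = 0.974), BCAP29 (0.972) and JAM3 (0.968), and for AREG FAIM3 (0.972), LTK (0.964) and NR4A2 (0.94). NRG1 was closest to HECTD3 (0.926), DNAJC10 and NR2F6 (0.9 each), and EGFR to GOSR1 (0.931), SYNGR3 (0.911) and CSGALNACT1 (0.907). PDGFC was closest to ZSWIM1 (0.97), FAM114A2 (0.888) and SRPR (0.881), and PDGFD to BCL9L (0.98), FBLN7 and FARP1 (0.969 each). PDGFA tied with many genes, 84 of which had r over 0.99, because any gene above the floor only in the control has that pattern. Among the members themselves, EREG had r = 0.711 with HBEGF and 0.528 with its neighbour AREG, and PDGFA had 0.889 with PDGFD.

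**Figure D2:**
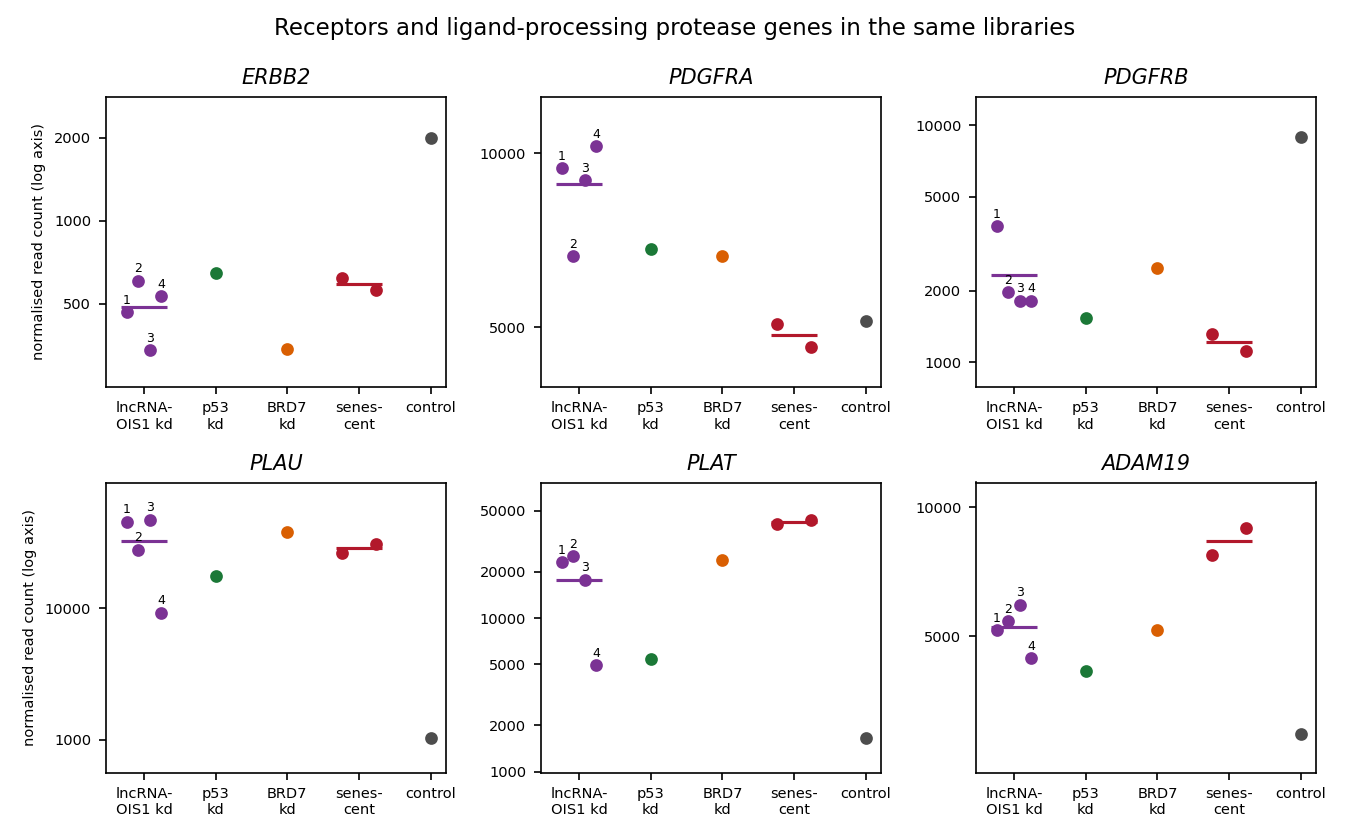
Normalised read count (log axis, own scale per panel) of receptor genes (ERBB2, PDGFRA and PDGFRB) and protease genes (PLAU, PLAT and ADAM19), 1 point per library, groups and bars as in the plot of the 8 genes. ERBB2 and PDGFRB are highest in the control (1995.7 and 8948.8), and PLAU, PLAT and ADAM19 lowest there.

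Among the receptors of these ligands, ERBB2 and PDGFRB were called lower in the senescent libraries than in the control, and EGFR and PDGFRA were not called. Of the ERBB receptors other than EGFR, ERBB2, the partner of the other ERBB receptors, was the 1 tested. ERBB2 had 465.6, 606.6, 339.3 and 533.7 in lncRNA-OIS1 replicates 1 to 4, 646.0 with p53 knockdown, 343.4 with BRD7 knockdown, 618.2 and 559.0 in the senescent libraries and 1995.7 in the control. All 8 RAS libraries were below the control, and ERBB2 fell against it in the senescent libraries (log2 −1.76, SE 0.34, limma adjusted p = 0.0289) and in the lncRNA-OIS1 libraries (log2 −2.07, SE 0.31, adjusted p = 0.0168). The calls were lost without senescent replicate 1 (adjusted p = 0.124 and 0.0591 for the 2 contrasts) or 2 (0.153 and 0.0591), and the first also without lncRNA-OIS1 replicate 1 (0.0563). ERBB3, a receptor of NRG1, had 28.3 in the control and was at the floor in the other 8 libraries, too low to be tested. The other EGF-family ligands in the table were EGF, NRG2 and NRG4, and 0 of 3 were called in any comparison over all libraries. Without lncRNA-OIS1 replicate 4, EGF was called higher in both contrasts with the control, and EGF was called lower and NRG2 higher with p53 knockdown against senescent. EGF had 125.1 and 125.0 in the senescent libraries and 51.7 in the control (log2 1.27, adjusted p = 0.328, and 0.00924 without lncRNA-OIS1 replicate 4), while NRG2 and NRG4 did not exceed 43.9 in any library.

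PDGFRB, the receptor of PDGFD, had 3757.1, 1972.4, 1819.2 and 1819.2 in lncRNA-OIS1 replicates 1 to 4, 1542.9 with p53 knockdown, 2501.7 with BRD7 knockdown, 1316.9 and 1120.8 in the senescent libraries and 8948.8 in the control. It fell in the senescent libraries against the control (log2 −2.88, SE 0.47, limma adjusted p = 0.0194), a call that was lost without senescent replicate 1 (0.102) or 2 (0.122). In the lncRNA-OIS1 libraries it fell by 2.01 on the log2 scale (SE 0.43, adjusted p = 0.0404). That call was lost without senescent replicate 1 or 2 (0.101 each), without lncRNA-OIS1 replicate 2 (0.0941), 3 (0.0816) or 4 (0.0535), and with no filter on low values (0.0529). PDGFRA, the receptor of PDGFA and PDGFC, had 9428.1, 6641.0, 8982.2 and 10273.4 in lncRNA-OIS1 replicates 1 to 4, 6829.0 with p53 knockdown and 6649.0 with BRD7 knockdown. It had 5057.7 and 4628.4 in the senescent libraries and 5135.9 in the control. All 4 lncRNA-OIS1 libraries were above both senescent ones (log2 0.85, SE 0.19, adjusted p = 0.091), and so were the p53 and BRD7 knockdown libraries, none with a call. Senescent and control differed by log2 −0.09 (95% interval −0.75 to 0.57). PDGFRL, a receptor-like gene, had 351.0 in lncRNA-OIS1 replicate 4 and 31.3 or less elsewhere.

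Most fibroblast markers were lower where PDGFRB was: of 10, 7 were called lower in the senescent libraries than in the control and 0 higher. Over all genes 7.1% were called lower. The largest falls were those of DCN (log2 −7.30, limma adjusted p = 0.00182) and LUM (log2 −5.53, adjusted p = 0.00597). THY1 (log2 −0.26) was not called, nor were VIM (0.38) and S100A4 (0.82), which had the other sign. Without lncRNA-OIS1 replicate 4, 7 were called lower and 1 higher (S100A4), beside 1689 genes called lower and 2015 higher of 12481. The summed level of the list was 151608.7 to 197429.1 in the lncRNA-OIS1 libraries, 186571.3 with p53 knockdown, 180442.3 with BRD7 knockdown, 118572.4 to 135888.6 in the senescent libraries and 440740.2 in the control. Fewer cells of a type and less RNA per cell cannot be told apart in bulk RNA, and the part of this shift in the receptor and ligand differences was not tested. The 3 leukocyte markers in the table did not move together. PTPRC had 156.6 in the control and was at the floor in the other 8 libraries, as PDGFA was, while CD14 had 143.9 and 115.2 in the senescent libraries and 39.9 in the control (log2 1.69, limma adjusted p = 0.159, called higher without lncRNA-OIS1 replicate 4). CSF1R was at the floor in the senescent libraries and the control. The summed level of the 3 was 67.2 to 117.6 in the lncRNA-OIS1 libraries, 90.9 with p53 knockdown, 163.0 with BRD7 knockdown, 155.2 to 183.9 in the senescent libraries and 216.5 in the control, and its part in the PDGFA difference was not tested.

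Proteases that free or activate the ligands were also measured. PLAU and PLAT, the plasminogen activators that process PDGFD and PDGFC, rose in the senescent libraries, and 2 of 6 tested genes of PDGF ligand processing were called higher and 0 lower (median log2 0.29, against 0.03 over all genes, of which 7.95% were called higher). PLAU had 45321.7, 27815.0, 46989.9 and 9227.6 in lncRNA-OIS1 replicates 1 to 4 and 26190.7 and 30796.4 in the senescent libraries, against 1033.3 in the control. The senescent rise was log2 4.78 (SE 0.99, limma adjusted p = 0.0337) and that in the lncRNA-OIS1 libraries log2 4.72 (SE 0.90, adjusted p = 0.0312). PLAT had 23014.8, 25364.9, 17757.0 and 4952.0 in lncRNA-OIS1 replicates 1 to 4, 5388.7 with p53 knockdown, 40950.0 and 43305.0 in the senescent libraries and 1665.7 in the control. It rose by log2 4.66 in the senescent libraries (SE 0.98, adjusted p = 0.0348), and was below them in all 6 knockdown libraries without a call. Between lncRNA-OIS1 knockdown and control PLAT had log2 3.18 (adjusted p = 0.0805), and log2 3.71 without replicate 4 (adjusted p = 0.00251). In p53 knockdown against senescent, PLAT had log2 −2.97 (adjusted p = 0.131, and 0.0241 without lncRNA-OIS1 replicate 4). The senescent calls of PLAU and PLAT were lost without either senescent replicate (adjusted p between 0.137 and 0.162), and without lncRNA-OIS1 replicate 1 (0.0535 and 0.0576), replicate 2 (0.0689 and 0.0582) or, for PLAT, 3 (0.0614). The PLAU call in the lncRNA-OIS1 libraries was lost without senescent replicate 1 (0.0871) or 2 (0.0872) and lncRNA-OIS1 replicate 1 (0.0607), 2 (0.0765) or 3 (0.0612).

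Of 8 tested ligand-shedding genes, 1 rose in the senescent libraries and 0 fell (median log2 0.30), a share near that of all genes, of which 15% were called. It was ADAM19, a metalloprotease that can cut neuregulin, at 5175.1, 5427.2, 5935.3 and 4455.2 in lncRNA-OIS1 replicates 1 to 4, 4162.1 with p53 knockdown, 5182.2 with BRD7 knockdown, 7744.9 and 8948.8 in the senescent libraries and 2953.4 in the control. The senescent rise was log2 1.5 (SE 0.19, limma adjusted p = 0.0114, and 0.0689 or 0.0887 without senescent replicate 1 or 2). All 6 knockdown libraries lay between the control and the senescent libraries, and ADAM19 rose by log2 0.82 in the lncRNA-OIS1 libraries over the control (adjusted p = 0.0418). That call was lost without senescent replicate 1 (0.0965) or 2 (0.0964), lncRNA-OIS1 replicate 1 (0.0803), 2 (0.0942) or 3 (0.0667), or the variance trend (0.051). With p53 knockdown against senescent ADAM19 had log2 −1.0 (adjusted p = 0.055, 0.032 without lncRNA-OIS1 replicate 4 and 0.0433 with only genes of mean at least 80). ADAM17, the main sheddase of HBEGF and AREG, had 703 ± 49.4 (SD, n = 2) in the senescent libraries and 619.2 in the control (log2 0.18, 95% interval −0.55 to 0.91).

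Among 15 signalling adaptors and brakes of EGFR, 2 rose in the senescent libraries and 0 fell (median log2 −0.01), a share near the 15% of all genes called. Without lncRNA-OIS1 replicate 4 it was 4 higher (with ERRFI1 and GRB2) and 3 lower (CBLB, SOS1 and LRIG3). Over all 12481 genes that fit called 2015 higher and 1689 lower. In lncRNA-OIS1 knockdown against control it called 3 adaptors and brakes higher (ERRFI1, PTPN12 and SH3KBP1) and 1 lower (CBLB). Over all genes it called 1448 higher and 1374 lower there. SH3KBP1, an adaptor of receptor uptake, had 6931.1 and 6538.9 in the senescent libraries and 1739.9 in the control (log2 1.95, SE 0.40, limma adjusted p = 0.0329). SHC1, an adaptor between receptor and RAS, had 14024 ± 611 (SD, n = 2) in the senescent libraries and 7243.0 in the control (log2 0.95, adjusted p = 0.0198). SHC1 was the 1 adaptor called against senescent in a knockdown: with p53 knockdown it had 6119.4, below all other libraries, and fell by 1.2 on the log2 scale (adjusted p = 0.0467). Without senescent replicate 1 or 2 none of these 3 calls passed (adjusted p between 0.104 and 0.279). SH3KBP1 also missed without lncRNA-OIS1 replicate 2 (0.0671) or 3 (0.0559), and the SHC1 change with p53 knockdown without replicate 1 (0.0657), 2 (0.061) or 3 (0.0767) and without the variance trend (0.0507). In the lncRNA-OIS1 libraries SH3KBP1 rose over the control as well (log2 1.68, adjusted p = 0.0429), a call lost without senescent replicate 1 or 2 (0.109 each), lncRNA-OIS1 replicate 1 (0.0533), 2 (0.0933) or 3 (0.0893), or the filter (0.0551). ERRFI1, a feedback inhibitor of EGFR, had 3450.2, 2974.6, 1689.9 and 13089.6 in lncRNA-OIS1 replicates 1 to 4, 1996.3 and 2099.3 in the senescent libraries and 467.3 in the control (senescent against control log2 2.13, adjusted p = 0.242, and 0.035 without replicate 4).

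Output genes of the RAS-MAPK pathway, taken without the ligands, were mostly higher with RAS activation. Of 18 tested, 9 rose in the senescent libraries and 0 fell, where 7.95% of all genes were called higher and 7.1% lower. Their median log2 was 1.49, beside 0.03 over all genes. In the lncRNA-OIS1 libraries 13 rose over the control and 0 fell, where 5.38% of all genes were called higher and 5.83% lower. The median there was 1.99, beside 0.05 over all genes. Without lncRNA-OIS1 replicate 4 it was 11 higher and 1 lower (EPHA4) in the senescent libraries and 15 higher and 1 lower (EPHA4) in the lncRNA-OIS1 libraries. Of 12481 genes, 2015 and 1448 were called higher in these 2 contrasts then, and 1689 and 1374 lower. The feedback inhibitor SPRY2 had 5589 ± 1032 (SD, n = 4) in the lncRNA-OIS1 libraries, 4024 ± 112 (n = 2) in the senescent libraries and 283.4 in the control (senescent log2 3.83, limma adjusted p = 0.00182). The transcription factor gene ETV1 had 1589 ± 356 in the lncRNA-OIS1 libraries, 1075 ± 55.6 in the senescent libraries and 45.2 in the control (senescent log2 4.57, adjusted p = 0.0019). Against senescent, 0 of 18 were called in lncRNA-OIS1, p53 or BRD7 knockdown over all libraries, and EPHA4 and IER3 were called higher with p53 knockdown when lncRNA-OIS1 replicate 4 was left out. HBEGF and EREG were also above the control in both senescent libraries, as 48.1% of all genes were, and neither passed the test over all libraries. AREG was at the floor in all 3 libraries, so its direction is unknown. A link between the ligands and this list was not tested.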

How the data were processed

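The 9 polyA RNA-seq libraries of BJ fibroblasts were used, grouped by their labels. The deposited table gives a signal per gene and library that the authors had normalised from read counts; per the submitters' processing notes, TopHat2, HTSeq and hg19 were involved, without version, annotation or strand. Quantile normalisation and the floor are known from the file's name and values. Values were used as deposited, and 849 of 1051 missing or date-like symbols were taken from a gene name table by identifier. limma 3.58.1 in R 4.3.3 was fitted to log2 values, with no pseudocount, of 12481 genes reaching 40 in some library, over 9 libraries and 5 groups (4 residual degrees of freedom, moderated variances with a trend). Single-library groups were assumed to vary like the others. Tests were two-sided, with Benjamini-Hochberg adjustment over all genes and a threshold of 0.05; the fit was tested on simulated data. Means are linear, folds are of log means. Members and lists were chosen with earlier results of these data known; the text names all members, called members of the lists (up to 2 per direction) and the 3 most similar genes. Alternatives covered pseudocounts, filters, scaling, variance trend, left-out libraries and a replicate block. The level of 1 targeted gene is not reported here. Since depth is unknown, no counting error is given.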

Additional observations from a re-analysis of the deposited data

Results flagged for a closer look

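AREG in the lncRNA-OIS1 knockdown group was singled out because 1 library stood far from the other 3: replicate 1 had 93.6, with 35.1, 23.3 and 23.9 in replicates 2 to 4. The gap to the nearest library was 0.832 of the group's range, just above Dixon's 95% critical value for 4 libraries. This ratio was taken on linear values, whereas the tests used log2 values. About 1 in 20 groups passes that value by chance, 7 genes were screened, and the values lie near the floor of 20.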

How the results depend on the processing

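Of 481 alternative values for members, 460 kept their direction and side of the threshold, 8 lost a call and 6 gained one. Part of the 460 could not change direction. Leaving out a lncRNA-OIS1 library does not alter the log2 change in contrasts without that group. Contrasts between groups at the floor have no change unless the values are rescaled. For senescent against control, 2 members were called, with 1 to 4 when 1 library was left out and 0 with a mean of at least 80, a filter that tests 5 of 8 members. For lncRNA-OIS1 knockdown against control, 2 were called, with 1 to 5 when 1 library was left out and 1 (NRG1) under that filter. Pseudocounts, no filter, scaling and no variance trend left both counts at 2, and the 3 contrasts with senescent stayed at 0 in every alternative run. Signs reversed for 7 values, none called. EGFR had −0.03 with median-of-ratios scaling (senescent against control) and, with 1 library left out, −0.0011 to 0.01 (p53 knockdown against senescent), where EREG had −0.19 to 0.11, and NRG1 −0.26 to 0.21 with BRD7 knockdown, each reversed without senescent replicate 2. HBEGF in lncRNA-OIS1 knockdown against senescent had −0.29 to 0.19, reversed without replicate 3 (0.07) or 4, and 0.51 with the replicate block. Replicate numbers 1 and 2 recur in both groups, but their deviations did not correlate positively (r = −0.0713 and −0.099), and with the block 0 members were called. The cause of these changes was not tested. Quantile normalisation hides depth and total RNA.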

Other observations

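Of 18 other growth factor ligands of fibroblasts tested, 2 rose in the senescent libraries (ANGPTL4 and VEGFC) and CTGF fell. That is a share near the 15% of all genes called (7.95% as higher and 7.1% as lower). Without lncRNA-OIS1 replicate 4 it was 3 higher (with HGF) and 1 lower (VEGFA in place of CTGF). In that fit 2015 of 12481 genes were called higher and 1689 lower. For p53 knockdown against senescent it called KITLG, VEGFA and GDNF higher and VEGFC lower, beside 1045 genes higher and 1101 lower. For lncRNA-OIS1 knockdown against control it called HGF, VEGFC and ANGPTL4 higher and VEGFA and ANGPT1 lower, beside 1448 genes higher and 1374 lower. VEGFC, a lymphatic growth factor, had 3092 ± 317 (SD, n = 4) in the lncRNA-OIS1 libraries, 3249 ± 27.2 (n = 2) in the senescent libraries and 1396.0 in the control (senescent log2 1.22, limma adjusted p = 0.0118). ANGPTL4, an angiopoietin-like factor, had 184.9 and 252.0 in the senescent libraries, and the control sat at the floor (adjusted p = 0.0195). CTGF, a matricellular factor, had 2136.4 and 1574.4 in the senescent libraries and 7018.2 in the control (log2 −1.94, adjusted p = 0.0436). HGF, or hepatocyte growth factor, had 519.0, 601.3, 1413.9 and 2620.9 in lncRNA-OIS1 replicates 1 to 4, 224.2 and 282.9 in the senescent libraries and 25.2 in the control (senescent log2 3.32, adjusted p = 0.0769, and 0.0311 without lncRNA-OIS1 replicate 4), and rose in the lncRNA-OIS1 libraries over the control (log2 5.36, SE 0.91, adjusted p = 0.0223). VEGFC and ANGPTL4 also rose in the lncRNA-OIS1 libraries over the control (adjusted p = 0.011 and 0.0356), the second not without senescent replicate 1 (0.0907) or 2 (0.0908), lncRNA-OIS1 replicate 2 (0.062) or 3 (0.074), or with a pseudocount of 50 (0.0817). Without senescent replicate 1 or 2 none of the 3 senescent calls and not that of HGF passed (adjusted p between 0.0695 and 0.194). That of CTGF was also lost without lncRNA-OIS1 replicate 2 (0.0574), 3 (0.0732) or 4 (0.0513) and with no filter (0.0553), and that of HGF without lncRNA-OIS1 replicate 3 (0.0538).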
